A study of Rattus norvegicus with 6 samples.

Results

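The insulin-like growth factor (IGF) axis was followed through 10 genes: the ligand Igf1, the receptor Igf1r, the adaptors Irs1 and Irs2, the binding proteins Igfbp2, Igfbp3, Igfbp4 and Igfbp5, and the pappalysins Pappa and Pappa2. They are 10 of the 23091 genes in the deposited table and were chosen by name, with earlier results of these data known. Where a symbol had more than 1 identifier, the best covered was to be used, but each of the 10 had a single identifier. The table holds 9 of them under these symbols, and Pappa under Pappa1, which RefSeq lists as its synonym. Counts below therefore include Pappa by its synonym.

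RNA came from wild-type rat marrow mesenchymal stem cells (MSCs), stromal cells that can form bone, cartilage and fat. In the CYSP group, 3 samples had been kept for 7 days in neural differentiation medium with CYSP, a treatment whose name the labels do not spell out. In the CK group, 3 samples had received the solvent DMSO in the same medium for the same 7 days. The series asks how gene expression changes while treated cells become neuron-like. Whether replicates were separate cultures or animals is not stated, so p-values measure no more than the spread between these 6 samples, and that spread may be technical.

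IGF1 is a secreted growth factor that acts through the receptor tyrosine kinase IGF1R. The activated receptor phosphorylates the docking proteins IRS1 and IRS2, which recruit PI3-kinase and lead to AKT. Outside the cell, IGF-binding proteins hold IGFs away from the receptor. The metalloproteinases PAPP-A and PAPP-A2 release IGF by cleaving some of them, chiefly IGFBP4 and IGFBP5 for PAPP-A and IGFBP3 and IGFBP5 for PAPP-A2. In marrow, stromal cells and macrophages are both sources of IGF1, and osteoblast-lineage cells make several of the binding proteins.

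The 10 genes differed in both directions. After CYSP, Irs1, Igfbp5, Igfbp4 and Pappa were higher, Irs2, Igfbp3, Igfbp2, Igf1 and Pappa2 were lower, and Igf1r did not pass the test. Pappa2 was nearly lost, with 8 counts over the CYSP group against 3493 over the CK group. All 10 genes passed the filter on low counts, 4 were higher and 5 lower by edgeR's quasi-likelihood test at an adjusted p of 0.05, and 1 did not pass. Across all 12623 genes tested, 38.2% were higher, 37.8% lower and 76.1% called in either direction, so 9 of 10 is near the background. Without Pappa the counts were 3 higher and 5 lower of 9. CYSP and CK samples did not overlap in 9 of the 10 genes, against 77% of all genes tested. The absolute log2 fold change had a median of 2.09 over the 10 genes, against 0.53 over all genes tested, and with sign the medians were -0.37 and 0. A call together with a change of 2-fold or more in either direction was reached by 6 of the 10 genes, against 27.8% of all genes tested. Since the 10 genes were chosen with earlier results of these data known, these contrasts in size describe them and test nothing.

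The stretches directly upstream of the start are shown for the adaptor and the 4 binding proteins whose RefSeq window begins at the gene's own start, since these genes moved in both directions. Each line gives 150 bases, 5′ to 3′ on the gene's strand, from RefSeq's GRCr8 build, with motif matches in capitals. The sources used here name no build for the deposited table.
Irs1: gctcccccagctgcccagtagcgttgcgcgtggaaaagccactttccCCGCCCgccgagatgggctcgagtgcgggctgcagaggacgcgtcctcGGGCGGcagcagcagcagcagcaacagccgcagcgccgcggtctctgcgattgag
Igfbp5: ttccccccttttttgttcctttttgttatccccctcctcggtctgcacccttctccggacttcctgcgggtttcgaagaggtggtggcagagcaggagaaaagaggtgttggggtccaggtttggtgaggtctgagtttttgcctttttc
Igfbp4: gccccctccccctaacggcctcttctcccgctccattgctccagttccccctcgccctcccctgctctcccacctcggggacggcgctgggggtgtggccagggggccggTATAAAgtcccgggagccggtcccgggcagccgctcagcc
Igfbp3: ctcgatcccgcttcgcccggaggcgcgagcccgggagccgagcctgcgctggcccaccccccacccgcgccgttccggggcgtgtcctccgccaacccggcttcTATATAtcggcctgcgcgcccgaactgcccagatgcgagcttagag
Igfbp2: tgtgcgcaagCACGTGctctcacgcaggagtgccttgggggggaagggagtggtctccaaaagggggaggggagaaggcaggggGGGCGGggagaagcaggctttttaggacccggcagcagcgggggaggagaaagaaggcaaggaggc
These stretches lie at chr9:91053960-91054109 on the minus strand for Irs1, chr9:81914188-81914337 on the minus strand for Igfbp5 and chr10:84491321-84491470 on the plus strand for Igfbp4. Those of Igfbp3 and Igfbp2 lie at chr14:86277945-86278094 on the minus strand and chr9:81864661-81864810 on the plus strand. Searched were the TATA letters TATAAA on the gene's strand, or in the variant form TATATA, and the GC box GGGCGG on both strands. Also searched on both strands were the hypoxia core ACGTG, the CRE half-site TGACG, the TEAD letters GGAATG and the FOXO letters GTAAACA. The TATA letters began 46 bases before the start in Igfbp3 and 40 in Igfbp4, and 7.8% of 27457 rat promoters hold them in a window of the same length. Irs1 had 2 GC boxes and Igfbp2 had 1, against 27.8% of promoters with any. The hypoxia core matched in Igfbp2 on both strands, overlapping as CACGTG, against 11.2% of promoters. Igfbp5, the gene with the largest rise, held none of these letters and had 52.7% G and C, against 65.3% to 73.3% in the other 4 and a median of 53.3% over all promoters. The CRE, TEAD and FOXO letters, held by 14%, 7.13% and 1.83% of promoters, were in none of the 5. RefSeq windows of Igf1, Igf1r and Pappa2 begin inside the gene and are not shown, and Irs2 and Pappa have no entry. The shares and the median over all promoters include windows that begin inside a gene, unlike the 5 stretches shown.

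Depth was similar in all samples, with 15060933 to 17040293 counts in CYSP and 15459099 to 17244700 in CK. A gene with no count in a sample could still lie at up to 0.174 to 0.199 CPM (counts scaled to library size), the level of 3 counts, which covers counting error only. Stromal markers were present, with 7 of 7 passing the count filter, 5 higher and 2 lower. Their summed levels were 3540 to 3600 CPM in CYSP and 4310 to 4350 CPM in CK. The largest part of both sums was Itgb1, 1 of the 2 lower. It had 1300 ± 18.7 CPM in CYSP and 2540 ± 33.6 CPM in CK, so the sum does not show the direction of most of these markers. Beside the counts of this and the other marker lists, 38.2% of all genes tested were higher and 37.8% lower. Of 7 neuron markers 3 were tested, with Tubb3 and Snap25 higher and Map2 lower, and Rbfox3, which encodes NeuN, had 0 counts in all 6 samples. Levels below are CPM scaled by the TMM method, and mean ± SD is over 3 samples per group.

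The ligand Igf1 was lower in CYSP and stayed at a low level in both groups. Its levels were 8.56, 7.64 and 10.4 CPM in CYSP, against 15.9, 13.3 and 15.9 CPM in CK. The groups did not overlap, and the log2 fold change was -0.77 (SE 0.12, edgeR adjusted p = 5.09e-08). Macrophage and leukocyte markers mark another source of Igf1. Of the 10 listed, 7 were lower, 1 was higher and 2, Cd14 and C1qb, did not pass the test. Over all genes tested, 37.8% were lower and 38.2% higher. The 10 markers summed to 525 to 532 CPM in CYSP and 1680 to 1900 CPM in CK, and none was at 0 in all samples. Most of both sums was Lyz2 and Adgre1. Lyz2 had 108 ± 4.07 CPM in CYSP and 883 ± 54.2 CPM in CK, and Adgre1 212 ± 4.14 and 554 ± 49.2 CPM. Cd163, the marker that was higher, had 761 counts over CYSP and 2 over CK. The part of these cells in the Igf1 difference was not tested. In bulk RNA fewer cells of a type and less RNA per cell cannot be told apart, which holds for every gene below.

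Igf1r, the receptor, showed no detectable difference. It had 59.8, 47.6 and 54.6 CPM in CYSP, against 54.1, 54.1 and 50.8 CPM in CK. The CYSP samples lay on both sides of the CK samples. The log2 fold change was 0.03 (SE 0.062, edgeR adjusted p = 0.67), with a 95% interval of -0.09 to 0.15. A change as large as that of Igf1 lies outside this interval, which covers only the spread between these samples. Within a sample the ratio of Igf1r to Igf1 in FPKM, which is scaled by gene length, was 4.97 ± 0.47 in CYSP and 2.84 ± 0.411 in CK.

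**Figure D1:**
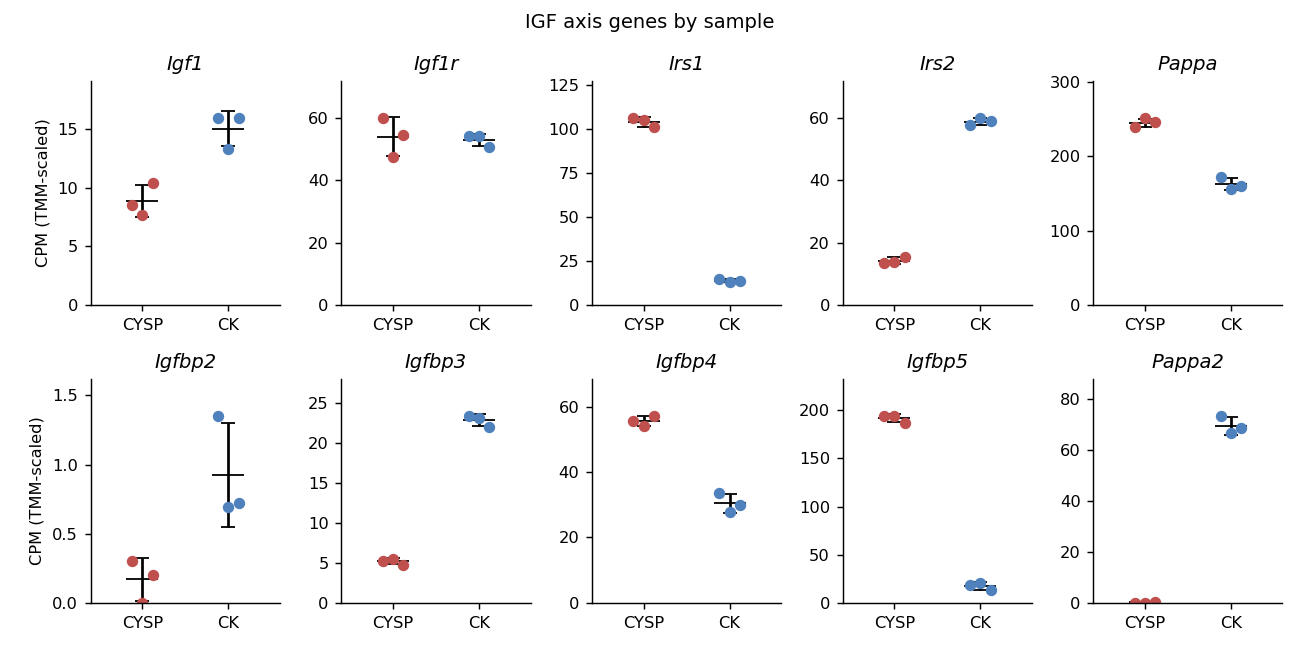
TMM-scaled CPM of the 10 genes in every sample (dots), with the mean (long bar) and SD (whiskers) of 3 CYSP samples on the left and 3 CK samples on the right of each panel. The axes start at 0 and differ between panels; only Igf1r overlaps between the groups, and Pappa2 lies at 0.0607 to 0.41 CPM in CYSP.

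The adaptor genes Irs1 and Irs2 exchanged their order. Irs1, a docking protein of insulin and IGF signalling, had 106, 105 and 101 CPM in CYSP, against 14.9, 12.9 and 13.8 CPM in CK. Irs2, the docking protein best known from liver and pancreatic beta cells, had 13.4, 13.8 and 15.5 CPM in CYSP, against 57.8, 59.9 and 59.2 CPM in CK. Every CYSP sample was above every CK sample for Irs1 and below for Irs2. By edgeR, Irs1 rose 7.47-fold (log2 fold change 2.9, SE 0.065, adjusted p = 1.36e-53) and Irs2 was 4.15-fold lower (-2.05, SE 0.076, adjusted p = 3.91e-39). Of the summed FPKM of the pair, Irs1 made up 87.7% ± 1.15 in CYSP and 18.7% ± 1.38 in CK. The sum itself was 11.8 ± 0.147 FPKM in CYSP and 7.85 ± 0.0223 FPKM in CK. Of 6 fat cell markers 3 were tested, with Adipoq and Cfd higher and Fabp4 lower, and sums of 517 to 543 CPM in CYSP and 17.3 to 21 CPM in CK. Nearly all of the CYSP sum was Adipoq, the adiponectin gene, at 519 ± 13.2 CPM in CYSP and 0.199 ± 0.253 CPM in CK. Fabp4, a fatty acid carrier, went the other way, at 8.91 ± 0.0917 CPM in CYSP and 17.1 ± 1.7 CPM in CK. Cidec was at 0 in all 6 samples, and the part of fat cells in the Irs1 difference was not tested. Irs1 had the 546th largest rise of the 12623 genes tested and Irs2 the 594th largest fall.

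The binding proteins changed in composition and in total. Igfbp5, which binds matrix and is abundant in bone, rose most among the 10 genes. It had 194, 194 and 187 CPM in CYSP, against 18.9, 21 and 13.3 CPM in CK (log2 fold change 3.43, SE 0.11, edgeR adjusted p = 5.89e-08). The spread between CK samples was the wider one, with a coefficient of variation of 22.4%, against 2.01% in CYSP. Of 6 osteoblast markers 5 were tested, with Spp1, Alpl and Sp7 higher, Ibsp lower and Runx2 not past the test, and sums of 1160 to 1200 CPM in CYSP and 334 to 348 CPM in CK. Most of both sums was Spp1, the osteopontin gene, at 1030 ± 19 CPM in CYSP and 249 ± 5.8 CPM in CK. Ibsp, a bone matrix gene, had 0.527 ± 0.0931 CPM in CYSP and 2.56 ± 0.477 CPM in CK. Bglap, the osteocalcin gene, was at 0 in all 6 samples, and the part of osteoblast-lineage cells in the Igfbp5 difference was not tested. Igfbp4, mostly an inhibitor of IGF action and the main PAPP-A substrate, had 55.6, 54.2 and 57.1 CPM in CYSP, against 33.7, 27.8 and 29.8 CPM in CK. Its rise was 1.82-fold (log2 fold change 0.87, SE 0.067, edgeR adjusted p = 4.11e-20), with no overlap between groups.

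Igfbp3, the main IGF carrier of serum, had 5.28, 5.54 and 4.78 CPM in CYSP, against 23.4, 23.2 and 22 CPM in CK. All CYSP samples lay below all CK samples, and the fall was 4.39-fold (log2 fold change -2.14, SE 0.12, edgeR adjusted p = 8.98e-28). Igfbp2, a binding protein of fetal tissues and brain, was close to the limit of detection. Its counts were 5, 0 and 3 in CYSP and 24, 11 and 12 in CK, or 0.17 ± 0.155 CPM and 0.923 ± 0.374 CPM. Its log2 fold change was -2.37 (SE 0.61, edgeR adjusted p = 0.000379). Leaving out samples singly gave values from -3.1 without CYSP replicate 1 to -1.82 without CYSP replicate 2. Igfbp2 and Igfbp5 are neighbouring protein-coding genes on opposite strands in the rat assembly GRCr8, and their differences had opposite signs. Igfbp1, the neighbour of Igfbp3, had 0 counts in all 6 samples.

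Summed over Igfbp1 to Igfbp6, the level per length was 64 ± 1.41 FPKM in CYSP and 30.5 ± 2.3 FPKM in CK. Igfbp5 made up 50% ± 1.26 of that sum in CYSP and 10.3% ± 2.52 in CK. Igfbp3 made up 3.27% ± 0.257 in CYSP and 32.1% ± 2.23 in CK. The share of Igfbp4 was 35% ± 0.592 in CYSP and 43.1% ± 0.696 in CK, so its own rise went with a smaller share. FPKM totals of the whole table were 464894 to 468133 in CYSP and 395003 to 399288 in CK. With limma on log2(FPKM + 1), however, the median log2 fold change over genes was -0.07, against 0 by edgeR on counts. The totals therefore give neither the size nor the direction of a shift in these sums.

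**Figure D2:**
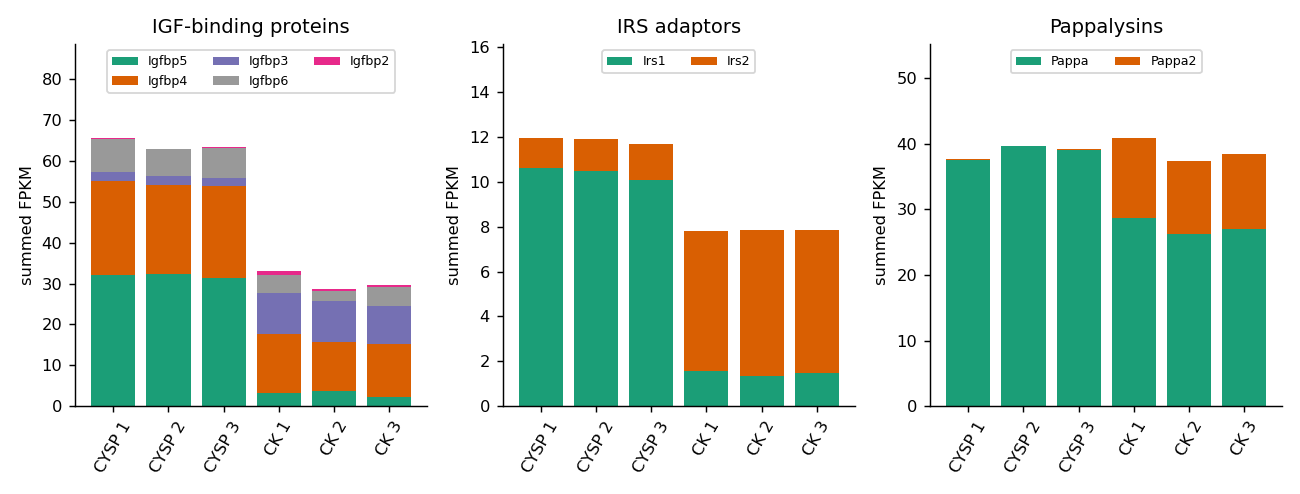
Summed FPKM of the binding proteins (left), the IRS adaptors (middle) and the pappalysins (right) in the 3 CYSP and 3 CK samples, coloured by gene. Igfbp5 takes 50% of the binding protein sum in CYSP and Igfbp3 32.1% in CK, Irs1 and Irs2 trade places, and the pappalysin sum is 38.8 FPKM in CYSP and 38.9 FPKM in CK.

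Of the pappalysins, Pappa2 was close to 0 in CYSP while Pappa rose. Pappa2 had 1, 1 and 6 counts in CYSP, against 1299, 1060 and 1134 counts in CK, or 0.179 ± 0.199 CPM and 69.4 ± 3.46 CPM. The fitted log2 fold change was -8.58 (SE 0.17, edgeR adjusted p = 2.81e-57), the 21st largest fall of the 12623 genes tested. It rests on 8 counts, and was -9.92 without CYSP replicate 3, which holds 6 of them, and -8.14 without CYSP replicate 1. Pappa had 239, 251 and 246 CPM in CYSP, against 172, 156 and 160 CPM in CK. Its rise was 1.51-fold (log2 fold change 0.59, SE 0.037, edgeR adjusted p = 3.54e-25), with no overlap. Per length, the sum of both was 38.8 ± 1.01 FPKM in CYSP and 38.9 ± 1.84 FPKM in CK, of which Pappa held 99.9% ± 0.0796 and 70.3% ± 0.0631.

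Compared per length, Pappa was the highest of the 10 genes in both groups, at 38.8 ± 0.997 FPKM in CYSP and 27.3 ± 1.27 FPKM in CK. In CYSP it was followed by Igfbp5 at 32 ± 0.613, Igfbp4 at 22.4 ± 0.594, Igf1r at 11.2 ± 1.21 and Irs1 at 10.4 ± 0.261 FPKM. Below them came Igf1 at 2.27 ± 0.3, Igfbp3 at 2.09 ± 0.157, Irs2 at 1.45 ± 0.119, Igfbp2 at 0.125 ± 0.114 and Pappa2 at 0.028 ± 0.0312 FPKM. The sample ranges of Igf1r and Irs1 overlapped, as did those of Igf1 and Igfbp3 and of Igfbp2 and Pappa2, so these neighbours have no order. In CK the order after Pappa was Igfbp4 at 13.1 ± 1.12, Igf1r at 11.6 ± 0.424, Pappa2 at 11.6 ± 0.565 and Igfbp3 at 9.75 ± 0.32 FPKM. Then came Irs2 at 6.38 ± 0.121, Igf1 at 4.14 ± 0.478, Igfbp5 at 3.14 ± 0.704, Irs1 at 1.47 ± 0.106 and Igfbp2 at 0.722 ± 0.291 FPKM. There the ranges of Igf1r and Pappa2 overlapped and those of all other neighbours did not. Igfbp5 was thus near the top of the order in CYSP and near the bottom in CK, and Irs1 was in the middle in CYSP and near the bottom in CK.

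**Figure D3:**
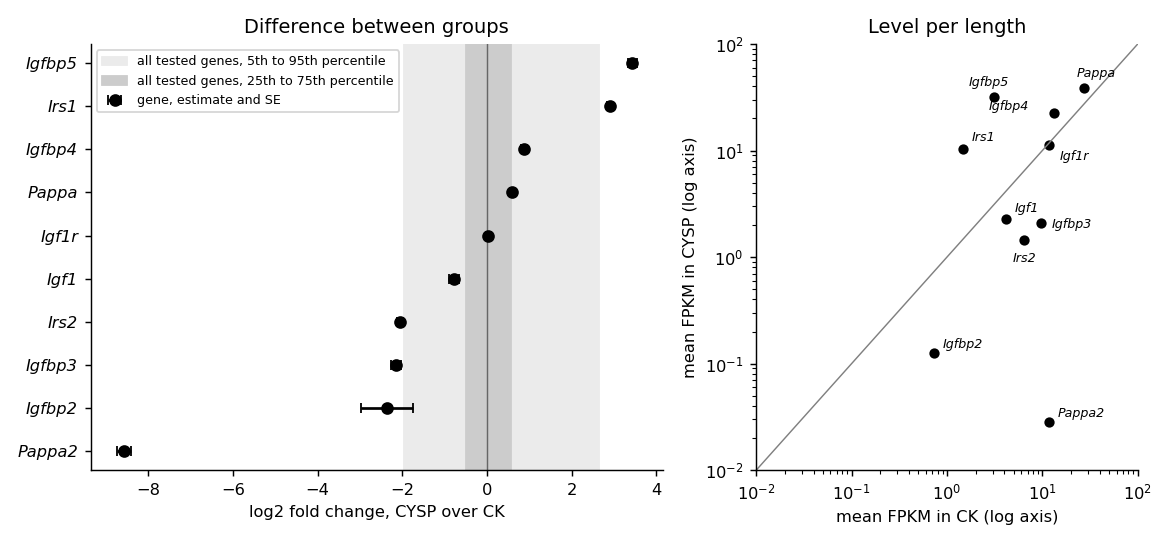
Left, log2 fold change of CYSP over CK for each gene with its SE, over the 25th to 75th (-0.5 to 0.57) and 5th to 95th percentile (-1.97 to 2.65) of all genes tested. Right, mean FPKM of each gene in CYSP (vertical) and CK (horizontal) on log axes with the line of equal level; Pappa2 stands farthest below it and Igfbp5 farthest above.

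Genes with the most similar pattern were sought by the distance between log2 CPM profiles over the 6 samples, each centred on its own mean. With 2 separate groups this likeness mostly reflects the size of the difference between them. For Irs1 the nearest were Xdh, Tgfbr3 and Lum, at distances of 0.0909 to 0.134. For Irs2 they were Samd4a, Rai14 and Efnb1, at 0.107 to 0.122. Pappa was nearest to Lnpep, Hyal3 and Ube4a, at 0.0493 to 0.0589. The nearest to Pappa2 were C1qtnf3, Adamtsl3 and Ccn5, at 1.19 to 1.51. Igfbp2 was also far from its nearest, Prom1, Pheta2 and Slitrk6, at 1.03 to 1.07. Both genes had 8 counts over the CYSP group, so counting error enters these distances and they show no pattern particular to either gene.

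Other genes of the pathway were taken from 8 lists of 92 genes, of which 90 were found and 79 tested. Of these 41 were higher, 25 lower and 13 did not pass the test, so 83.5% were called, near the 76.1% of all genes tested. The absolute log2 fold change had a median of 0.8, against 0.53 over all genes tested. The lists were chosen with earlier results of these data known, so contrasts of a list with all genes describe it and test nothing. Genes named here follow a naming rule by size, except Stc2, Irs3 and those with few or no counts, which were chosen after their values were seen.

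Of 14 genes that act on the pappalysins and binding proteins, the test covered 13 and called 10 higher and 3 lower in CYSP, against 38.2% higher and 37.8% lower over all genes tested. The median over the 13, inhibitors and proteases together, was 1.18 on the log2 scale, against 0 over all genes tested. This contrast describes the list and tests nothing. The largest rise was that of Stc1, the glycoprotein stanniocalcin-1, which inhibits PAPP-A and PAPP-A2, at 117 ± 1.84 CPM in CYSP and 2.03 ± 0.348 CPM in CK. Its log2 fold change was 5.84 (SE 0.091, edgeR adjusted p = 6.91e-65). Stc2, the second stanniocalcin and a covalent PAPP-A inhibitor, had 81 ± 2.79 CPM in CYSP and 15.1 ± 0.905 CPM in CK (log2 fold change 2.42, SE 0.068, edgeR adjusted p = 7.5e-47). Prg2, which encodes the PAPP-A inhibitor proMBP, had 0 counts in all 6 samples. The matrix metalloproteinases Mmp3, Mmp9 and Mmp2, which can cleave binding proteins, were higher by 5.46, 4.25 and 2.59 on the log2 scale. Among those that fell were Plau, the urokinase-type plasminogen activator, at -2.51 and Adam12, which cleaves IGFBP3 and IGFBP5, at -1.61. Adam12 nevertheless had 583 ± 4.72 CPM in CYSP, against 1780 ± 38.2 CPM in CK.

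All 3 tested genes of the other ligands and receptors were higher, against 38.2% of all genes tested. Igf2r, the mannose 6-phosphate receptor that clears IGF2, had 2080 ± 26.3 CPM in CYSP and 626 ± 10.4 CPM in CK (log2 fold change 1.73, SE 0.025, edgeR adjusted p = 2.92e-67). Igf2, the second IGF ligand, was low, with 2.54 ± 0.726 CPM in CYSP and 1.13 ± 0.379 CPM in CK (log2 fold change 1.17). Insr, the insulin receptor, had a log2 fold change of 0.23. Its call ended without CYSP replicate 3 (edgeR adjusted p = 0.0871) and with scaling to library size only (edgeR adjusted p = 0.0914). The call also ended with limma on log2 FPKM and at assumed biological coefficients of variation of 0.2 and 0.4. Ins1 and Ins2, the rat insulin genes, had 0 counts in all 6 samples. Among 7 other binding and related proteins 4 were tested, of which Igfbp6 and Igfbp7 rose and Esm1 and Kazald1 fell. A call in either direction was reached by 76.1% of all genes tested. Igfbp6, which prefers IGF2, had 7.4 ± 0.789 CPM in CYSP and 3.52 ± 1.09 CPM in CK. Igfbp7, a relative with weak IGF binding, had a log2 fold change of only 0.13. Its call was lost with library size scaling (edgeR adjusted p = 0.31), with limma on log2 FPKM and at both assumed coefficients of variation. Esm1, a secreted proteoglycan, and Kazald1, each with an IGFBP-like domain, had log2 fold changes of -2.89 and -1.98. Of 5 endothelial markers, which mark a usual source of Esm1, 3 were tested, with 2 higher and 1 lower, and sums of 2.57 to 4.1 CPM in CYSP and 1.51 to 2.32 CPM in CK.

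Adaptor genes beside Irs1 and Irs2 also split. Of 13 listed, 12 were tested, with 5 higher, 5 lower and 2 that did not pass. Over all genes tested, 38.2% were higher and 37.8% lower. Irs3 was 1 of the 2 that did not pass, at 0.589 ± 0.271 CPM in CYSP and 0.919 ± 0.203 CPM in CK. Grb14 and Grb10, which bind and inhibit the insulin and IGF1 receptors, were both lower. Grb14 had 14.3 ± 1.14 CPM in CYSP and 137 ± 2.82 CPM in CK (log2 fold change -3.25, SE 0.061, edgeR adjusted p = 5.19e-59). Grb10 had 222 ± 2.22 CPM in CYSP and 571 ± 5.16 CPM in CK (log2 fold change -1.36). Sh2b2, the adaptor APS that binds the insulin receptor, rose to 68 ± 5.78 CPM in CYSP, against 6.74 ± 0.384 CPM in CK (log2 fold change 3.33). Gab1, a docking protein of several receptors, fell by 0.85 on the log2 scale.

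Of 27 components of the PI3K, AKT and mTOR pathway 11 were higher, 8 lower and 8 did not pass, with a median log2 fold change of -0.02, while 76.1% of all genes tested were called. Pik3r1, the regulatory subunit through which PI3-kinase binds IRS proteins, rose to 162 ± 5.65 CPM in CYSP, against 31.8 ± 0.942 CPM in CK (log2 fold change 2.35). A further regulatory subunit gene, Pik3r3, had a log2 fold change of 1.23, and the transcription factor gene Foxo3 1.15. Phlpp1, an AKT phosphatase, had a log2 fold change of -1.11. FOXO factors are held out of the nucleus by AKT, and Irs2 is itself a known FOXO target in liver. Of 14 listed FOXO targets 11 were tested, with 5 higher, 4 lower and 2 that did not pass. Shares over all genes tested were 38.2% higher and 37.8% lower. Pdk4 and Sesn3 were higher, at 3.17 and 2.97 on the log2 scale, and Fbxo32 and Txnip fell, at -4.03 and -2.85.

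Growth hormone, acting through its receptor and STAT5, is the main inducer of Igf1 in liver. Of 8 genes of that axis 7 were tested, with 3 higher, 3 lower and 1 that did not pass. Here too 38.2% of all genes tested were higher and 37.8% lower. Ghr, the receptor, had 17.2 ± 1.54 CPM in CYSP and 9.73 ± 1.19 CPM in CK, and Jak2, its kinase, had a log2 fold change of 0.88. Stat5b fell by 0.6 on the log2 scale, and Cish, a STAT5 target, had -2.38, while the cytokine feedback gene Socs3 had 2.55. Igf2bp2 and Igf2bp3, which bind Igf2 and other messages, were higher by 0.8 and 1.02 on the log2 scale, and Igf2bp1 had 2 counts over CYSP and 3 over CK.

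**Figure D4:**
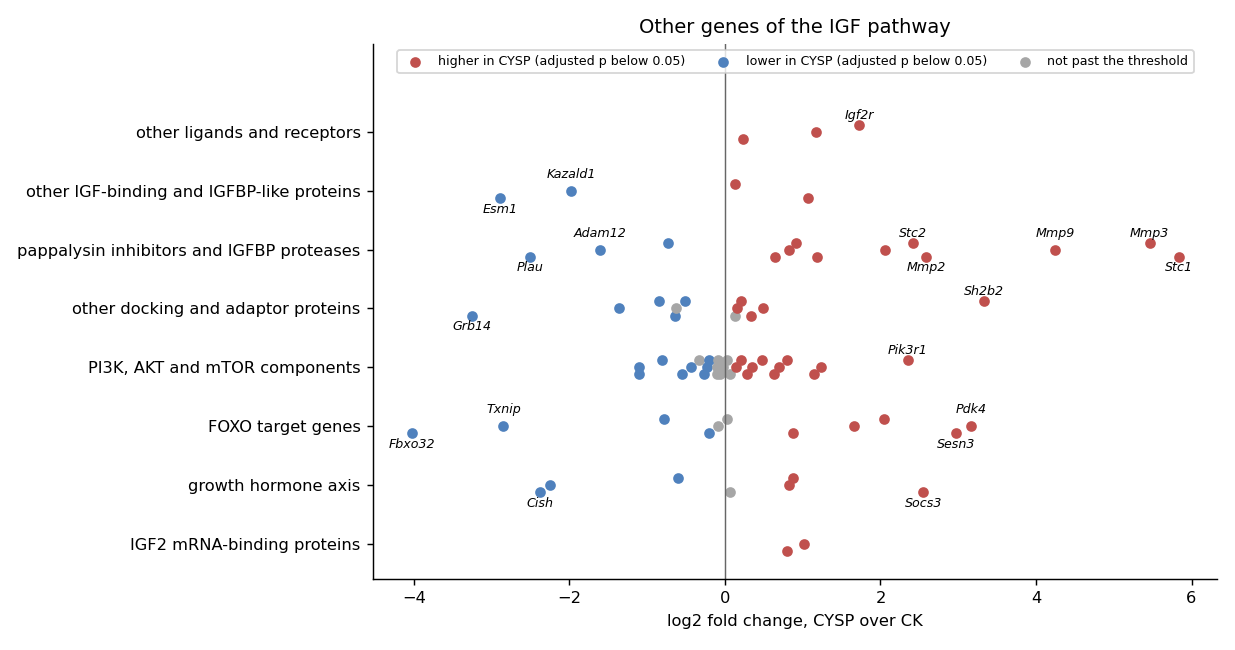
Log2 fold change of CYSP over CK for the 79 tested pathway genes outside the 10, by list; red is higher and blue lower at an adjusted p below 0.05, grey did not pass, and small vertical offsets only separate dots. Pappalysin inhibitors and IGFBP proteases reach 5.84 with Stc1, while the PI3K, AKT and mTOR components lie between -1.11 and 2.35.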

How the data were processed

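RNA was extracted with Trizol and polyadenylated RNA was enriched on oligo(dT) beads, per the labels' protocols. The submitters' processing notes name HISAT2, RSEM, fastp 0.18.0 and StringTie 1.3.1 without saying what each did. No build, annotation or strand setting is given in the sources used here. Per the file headers, the authors deposited raw read counts and FPKM for each sample. Their deposited group means, log2 ratio, p-value and FDR columns gave no result printed here.

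Counts were tested with edgeR 4.0.16 in R 4.3.3 (filterByExpr, TMM scaling, robust dispersion, glmQLFit, glmQLFTest) over 12623 genes, with Benjamini-Hochberg adjustment and a threshold of 0.05. A further 3590 genes were under the filter and 6878 had no count. Standard errors are the log2 difference over the root of F, and understate the error where a group has few counts. The procedure was tested on simulated counts. Members, lists, motifs and tests were chosen with earlier results of these data known. The naming rule takes the 10 genes and, from each list, up to 4 called genes of at least 1 CPM on average that changed most, plus up to 2 of the minority direction. Irs4 and G6pc1 are not analysed here. A gene that the naming rule selects is not reported here. Alternatives were other scalings, DESeq2 1.42.0, other filters, leaving out samples singly, a replicate block, limma 3.58.1 on log2 FPKM, and assumed spreads.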

Additional observations from a re-analysis of the deposited data

How the results depend on the processing

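Over 18 alternatives, 168 of 177 values of the 10 genes kept their direction and side of the threshold, and 585 of 609 values of 34 other named genes did. Igf1r, which did not pass the test, changed sign at log2 fold changes of -0.05 with library size only and -0.06 with limma on log2(FPKM + 1), with or without the filter, or log2(FPKM + 0.1); leaving out a sample gave -0.05 to 0.12. With an assumed biological coefficient of variation of 0.2, in place of the 0.0393 estimated, 3102 genes were higher and 2801 lower. With 0.4 the counts were 1496 and 1209 over all genes, 2 of the 10 genes higher, and 15 and 10 of the pathway genes. Igf1, Igfbp4 and Pappa lost their calls at 0.4 (adjusted p = 0.311, 0.217 and 0.468, by edgeR's likelihood ratio test with Benjamini-Hochberg adjustment).

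On log2(FPKM + 1) the fold change of Pappa2 was -3.61 and that of Irs1 2.21, since the added 1 shrinks low genes. Igfbp2 could not be fitted under the stricter filter of 50 counts or at a mean FPKM of at least 0.5. Same-numbered CYSP and CK samples did not deviate together (correlations of -0.0104 to 0.0186), and not every sample correlated best with its own number. This gave no sign that the numbers pair the samples. The deviations include counting error, so the check cannot exclude pairing. With the replicate number as a block, 4773 genes were higher and 4712 lower, and the 10 genes kept 4 higher and 5 lower. Depth limits Igfbp2 and Pappa2, with 8 counts each over the CYSP group.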
